A study of Mus musculus with 27 samples.

Results

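Organoids grown from the jejunum of germ-free mice were the subject of the comparison. Organoids are epithelial cultures that grow from intestinal crypts in a gel and hold stem cells together with their differentiated progeny. The members were the 6 libraries, of 27 in the series, whose labels give organoids and a germ-free origin. They came from 3 cultures (Z917, Z918 and Z919), of 15 cultures in all. From every culture there were a library labelled untreated and a library labelled as treated with TNF at 5 ng/mL for 8 h. The donors were C57BL/6 mice, per the study's methods male littermates of 8 to 12 weeks that were housed together in isolators, and the organoids were at passage 5 to 8. The germ-free state was that of the donor, and all 6 libraries share it. Murine TNF was added with fresh culture medium, and untreated controls had their medium exchanged. The 12 organoid libraries of specific pathogen-free (SPF) C57BL/6 mice, from 6 cultures of the facilities SR and SE with the same labels, were used for comparison and shared 1 model with the germ-free libraries.

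TNF is a cytokine that binds TNF receptor 1 on epithelial cells. The receptor complex activates the IκB kinase, IκB proteins are degraded, and NF-κB dimers enter the nucleus and start transcription. Among their targets are the genes of IκBα (Nfkbia) and of the deubiquitinase A20 (Tnfaip3), which close the pathway again, the NF-κB subunits Nfkb2 and Relb, and genes of mucosal defence such as C3, Reg3g, Nos2 and Pigr. In the intestine TNF is known as a mediator of inflammation and of epithelial cell shedding.

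The label and the name of the deposited data differed on the treatment. The name code ends in T for all 3 germ-free libraries labelled untreated and for none of the 3 labelled TNF-treated, so that 0 of 6 names matched the label. The same held for the 6 libraries of each SPF facility. The groups below follow the labels, and each difference is given as labelled untreated minus labelled TNF-treated, paired by culture. The NF-κB targets were checked first and went against the labels. Nfkbia stood at 147, 190 and 157 CPM (normalised read counts, scaled to the total of each library) in the libraries of Z917, Z918 and Z919 labelled untreated, and at 23.3, 30.4 and 29.3 CPM in those labelled TNF-treated. Every direction below is therefore a direction between labels, and a gene described as higher in the libraries labelled untreated was higher in the libraries with the T code.

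The promoter sequences of 5 of the genes described below are shown because NF-κB acts through sites near the start of its targets. They are the 250 bases before the RefSeq start, from RefSeq on GRCm38.p6, 5′ to 3′ on the strand of the gene. Capitals mark letters that match the κB consensus, searched on both strands. None of the 5 windows holds an annotated exon of its gene.
Nfkbia, the inhibitor IκBα, chr12:55492648-55492897, minus strand: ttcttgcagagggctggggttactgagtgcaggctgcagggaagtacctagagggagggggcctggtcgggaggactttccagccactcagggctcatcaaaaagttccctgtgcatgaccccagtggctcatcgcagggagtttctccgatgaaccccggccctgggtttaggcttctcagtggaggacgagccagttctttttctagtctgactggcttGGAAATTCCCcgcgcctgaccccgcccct
Reg3g, a secreted antibacterial lectin, chr6:78468875-78469124, minus strand: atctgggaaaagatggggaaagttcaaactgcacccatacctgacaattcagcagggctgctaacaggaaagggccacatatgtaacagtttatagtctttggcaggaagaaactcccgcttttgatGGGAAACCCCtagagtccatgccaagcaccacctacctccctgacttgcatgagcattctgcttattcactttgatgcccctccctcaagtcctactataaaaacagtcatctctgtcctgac
Ccl20, a chemokine, chr1:83116516-83116765, plus strand: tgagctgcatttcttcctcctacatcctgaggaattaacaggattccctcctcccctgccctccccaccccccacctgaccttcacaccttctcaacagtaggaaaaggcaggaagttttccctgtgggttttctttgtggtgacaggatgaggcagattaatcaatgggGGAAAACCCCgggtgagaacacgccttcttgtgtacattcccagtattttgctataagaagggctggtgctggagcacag
Irf1, a transcription factor, chr11:53769764-53770013, plus strand: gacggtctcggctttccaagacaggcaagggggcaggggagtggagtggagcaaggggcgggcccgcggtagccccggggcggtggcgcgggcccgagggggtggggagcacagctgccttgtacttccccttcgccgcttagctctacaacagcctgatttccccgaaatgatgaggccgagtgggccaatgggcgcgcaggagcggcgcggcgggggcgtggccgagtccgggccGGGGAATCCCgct
C3, the central complement protein, chr17:57228137-57228386, minus strand: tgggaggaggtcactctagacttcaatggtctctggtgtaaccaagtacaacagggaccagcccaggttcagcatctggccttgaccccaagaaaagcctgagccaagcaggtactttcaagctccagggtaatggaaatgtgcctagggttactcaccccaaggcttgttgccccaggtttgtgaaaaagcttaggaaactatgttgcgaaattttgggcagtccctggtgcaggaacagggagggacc

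The match began at position -29 of the start in Nfkbia, at -123 in Reg3g, at -80 in Ccl20 and at -13 in Irf1, and these letters are not in the window of C3. RefSeq lists a further window for Irf1, chr11:53770223-53770472, which overlaps annotated exons of the gene and holds no match; the other 4 genes have 1 window each. Of the 78 genes higher in the libraries labelled untreated, 60 had a promoter in the RefSeq set, and 17 of these (28.3%) held a match in at least 1 listed window. Of the 15 lower genes, 11 had a promoter and 3 (27.3%) held a match. Among the 12604 genes tested that have a symbol, 1051 of 9868 with a promoter (10.7%) held one, and over all genes of the set the share was 8.23%. These shares are descriptions, and a match is not a binding site.

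The 6 libraries held between 20786008 and 35283218 counts on genes (22898411 to 31385204 labelled untreated, 20786008 to 35283218 labelled TNF-treated), for 22524 genes. A detection floor of 3 counts per library corresponds to 0.085 to 0.144 CPM. Epithelial markers (Epcam, keratins, villin and others, 12 of 12 tested) summed to 10890 to 11710 CPM in the libraries labelled untreated and 10730 to 11530 CPM in the others, and none of them passed the test. Of 12 immune cell markers 6 were at 0 in all 6 libraries, among them Ptprc and Cd3e, and the list summed to 4.07 to 11.5 CPM and 5.06 to 8.13 CPM. Of 7 endothelial markers 2 were at 0 (Cdh5 and Emcn), with sums of 0.463 to 2.93 and 0.221 to 3.30 CPM. Of 10 fibroblast markers 3 were at 0 (Dcn, Lum and Thy1), and Vim and Pdgfrb made most of a sum that was 26.0 to 32.8 CPM in the libraries labelled untreated and 16.7 to 27.2 CPM in the others. The part of these few transcripts in the results was not tested. Over all genes tested, the median absolute log2 difference between the 2 labels of 1 culture was 0.245 in Z917, 0.291 in Z918 and 0.319 in Z919. Between cultures of the same label it was 0.355 to 0.392 labelled untreated and 0.280 to 0.315 labelled TNF-treated.

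In the germ-free organoids, 93 of 12640 genes tested (0.736%) differed between the labels at an adjusted p under 0.05 (edgeR quasi-likelihood test, Benjamini-Hochberg). Of these, 78 (0.617% of the genes tested) were higher in the libraries labelled untreated and 15 (0.119%) were lower. The 78 included NF-κB genes, mucosal defence, antigen processing, a set of crypt genes and Clca genes, and 38 of them differed by at least 1 on the log2 scale. The 15 lower genes were less changed, with 2 past that size. The median size was 0.99 on the log2 scale for the higher and 0.47 for the lower genes, while the median over all genes tested was -0.02. By the thresholds of the study (a log2 change of 0.5 or more and an unadjusted p not over 0.05), 261 were higher and 200 lower, which is 3.65% of the genes tested. The direction was shared by all 3 cultures in 75 of the 78 higher genes and in 15 of the 15 lower ones. The median log2 ratio of the 78 was 0.84 in Z917, 1.03 in Z918 and 0.98 in Z919, and that of the 15 was -0.42, -0.47 and -0.43. The values of the 2 labels did not overlap in 66 of the 78 and in 5 of the 15, against 8.95% of all genes tested. The genes were called on these same values, so shared direction and lack of overlap describe the calls and are no separate support.

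**Figure D1:**
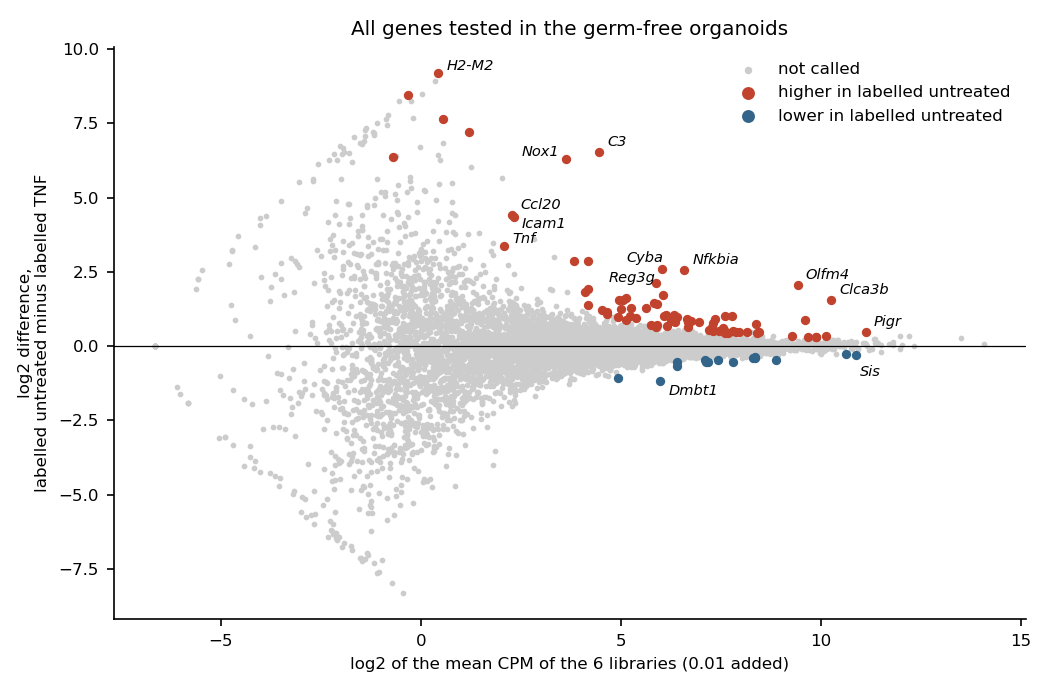
Each point is 1 of the 12640 genes tested. The x axis gives log2 of the mean CPM of the 6 germ-free libraries and the y axis the fitted log2 difference, labelled untreated minus labelled TNF-treated. The 78 red points lie above 0 and the 15 blue points below it, and the highest points on the left, such as H2-M2, are genes at 0 or near it in all libraries labelled TNF-treated, whose fitted size is no measured fold.

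The NF-κB subunits and IκB proteins were 11 genes, all tested. Of these, 4 were higher in the libraries labelled untreated (Nfkbia, Nfkb2, Relb and Bcl3), none was lower, and the median log2 difference was 0.76. Their summed level was 574 to 695 CPM labelled untreated and 339 to 345 CPM labelled TNF-treated, with no overlap. Nfkbia, with the values given above, was higher by 2.57 ± 0.126 (SE derived from the fit, n = 3 cultures) on the log2 scale, or 5.95-fold (adjusted p = 1.3e-16, edgeR). The 3 cultures lay close together, at log2 ratios of 2.65, 2.64 and 2.42.

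Nfkb2, the precursor of the subunit p52, stood at 82.4, 113 and 112 CPM in the libraries of Z917, Z918 and Z919 labelled untreated and at 29.2, 26.4 and 37.3 CPM in the others. The difference was 1.72 ± 0.164 on the log2 scale (adjusted p = 6.4e-09), and the lowest value of the first label was over the highest of the second. Relb, the partner of p52, stood at 79.1, 90.4 and 89.9 CPM against 44.4, 36.2 and 20.5 CPM. It was higher in each culture, by 1.42 ± 0.188 (adjusted p = 7.2e-06), with the largest log2 ratio in Z919 (2.13) and the smallest in Z917 (0.83). Bcl3, an atypical nuclear IκB protein, stood at 34.2, 25.4 and 44.5 against 15.7, 14.0 and 18.4 CPM and was higher by 1.09 ± 0.222 (adjusted p = 0.0059). It missed the threshold without Z917 (adjusted p = 0.094) and without Z919 (0.15). The other 7 members did not pass the test. Nfkb1, the precursor of p50, was nearly level at 104, 112 and 103 against 100, 119 and 117 CPM. Rela, the main transactivating subunit, stood at 44.3, 77.0 and 44.0 against 51.0, 49.2 and 36.0 CPM, with overlapping labels. The log2 differences of Rel (0.20), Nfkbib (0.30), Nfkbid (0.76), Nfkbie (0.94) and Nfkbiz (0.06) had adjusted p values of 0.77 to 0.99.

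**Figure D2:**
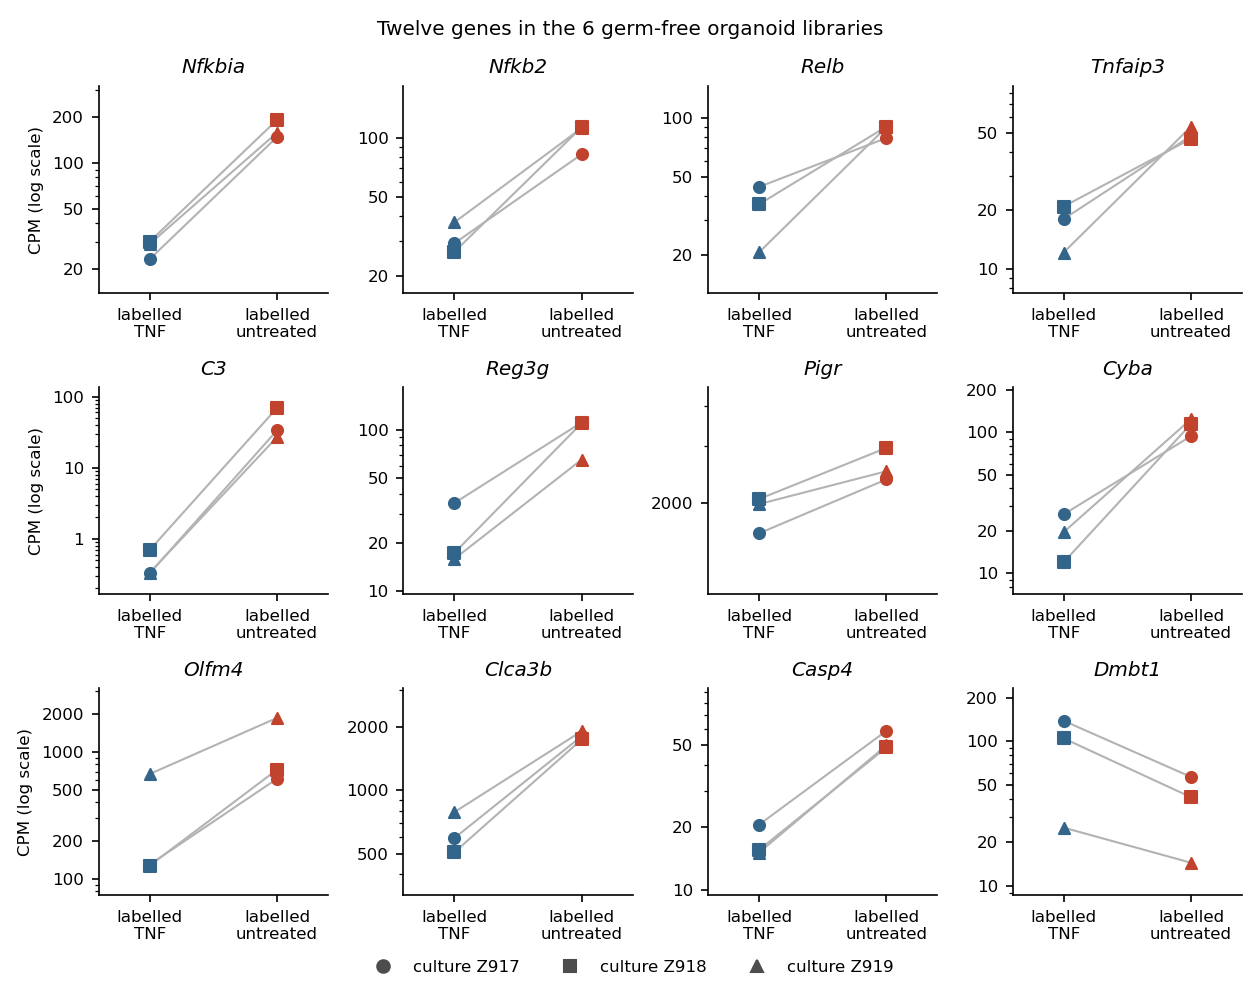
Levels of 12 genes in CPM on log axes, with the libraries labelled TNF-treated in blue and those labelled untreated in red. A grey line joins the 2 libraries of a culture, and the marker gives the culture. The lines rise in all 3 cultures for 11 genes and fall in all 3 for Dmbt1, and Olfm4 and Dmbt1 show that Z919 stood apart from the other cultures under both labels.

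Of 22 tested genes of the TNF receptors and the signalling complex next to them, 1 was higher in the libraries labelled untreated, Birc3, and the median was -0.03. Over all genes tested, 0.617% were higher. A gene that did not pass is not thereby shown to be level. Tnfrsf11a and Ikbke, described below outside this list, were higher too. Birc3 encodes cIAP2, a ubiquitin ligase of the receptor complex that is itself induced by NF-κB. It stood at 63.0, 49.8 and 51.9 CPM against 21.3, 27.1 and 37.6 CPM, higher by 0.96 ± 0.208 (adjusted p = 0.011), and it missed the threshold without Z917 (0.37) and without Z918 (0.12). The receptor Tnfrsf1a stood at 58.3, 79.5 and 61.1 against 77.1, 70.7 and 82.5 CPM and did not pass the test (log2 difference -0.22, adjusted p = 0.84).

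Of 16 tested negative regulators, 1 was higher, Tnfaip3, and the median was 0.24. Tnfaip3 stood at 48.2, 46.6 and 53.7 CPM in the libraries labelled untreated and at 18, 20.9 and 12.1 CPM in the others. The difference was 1.57 ± 0.223 on the log2 scale (adjusted p = 2.4e-05), and the labels did not overlap. Tnip1, which binds A20, was at the edge of the test at 0.65 ± 0.165 (adjusted p = 0.051), with 62.1, 95.6 and 69.8 against 49.4, 47.0 and 46.3 CPM. Among 16 tested ligands and other receptors of the TNF superfamily, Tnf itself was higher. Its transcript was low, at 10.6, 5.33 and 7.21 CPM against 1.02, 0.819 and 0.415 CPM. The difference was 3.38 ± 0.829 (adjusted p = 0.038), and it missed the threshold without any 1 of the 3 cultures (adjusted p = 0.18 to 0.48). Tnfrsf11a, the receptor RANK, which was named after its values were seen, stood at 56.8, 52.2 and 52.1 against 19.7, 21.3 and 25.8 CPM and was higher by 1.28 ± 0.182 (adjusted p = 2.5e-05).

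Complement C3 showed a wide contrast. It stood at 33.6, 69.6 and 27.0 CPM in the libraries labelled untreated and at 0.325, 0.693 and 0.332 CPM in those labelled TNF-treated, which is low but above the detection floor in all 3. The difference was 6.55 ± 0.441 on the log2 scale (adjusted p = 6.1e-13), or 93.5-fold, with log2 ratios of 6.41, 6.51 and 6.07 in the 3 cultures. Of the 12 complement genes tested it alone passed, and the median was 0.30. Cfb, the factor B of the alternative pathway, was at 208, 192 and 225 against 162, 186 and 177 CPM and did not pass (0.25, adjusted p = 0.61).

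Of 30 genes of mucosal defence and the acute phase in the data 18 were tested. Of these, 7 were higher, against 0.617% of all genes tested, and none was lower. The median was 1.31, but a low gene could enter the test through the label where it was high. The median therefore does not describe the whole list. Reg3g, which encodes a lectin that kills Gram-positive bacteria, stood at 111, 110 and 65.3 CPM against 35.2, 17.3 and 15.9 CPM. It was higher by 2.12 ± 0.219 (adjusted p = 4.2e-08), with no overlap. The paralog Reg3b went the other way in each culture without passing the test, at 30.9, 21.9 and 14.5 against 33.9, 29.6 and 16.6 CPM (-0.26, adjusted p = 0.91). Reads that fit several Reg3 genes may have been split between them, since the handling of such reads is not given in the sources used here.

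The other members that passed were parts of the oxidase and nitric oxide defence, the IgA transporter and haptoglobin. Cyba, the p22phox subunit of NADPH oxidases, stood at 94.3, 115 and 124 against 26.2, 12 and 19.6 CPM (2.59 ± 0.204, adjusted p = 4.5e-11). Its partner Noxo1, the organiser of the epithelial oxidase, stood at 117, 116 and 102 against 72.7, 54.5 and 45.1 CPM (0.98 ± 0.143, adjusted p = 3.6e-05). Nox1, the catalytic subunit, was at 49.5, 14.6 and 6.68 against 2.97, 0 and 0 CPM (adjusted p = 4.4e-05). Noxa1, the activator of the same oxidase, was low and did not pass, at 3.99, 0.794 and 0 against 1.16, 0.977 and 0.831 CPM (-0.75, adjusted p = 0.97), and was named after its values were seen. Nos2, the inducible nitric oxide synthase, stood at 25.7, 35.2 and 10.9 against 9.52, 1.70 and 1.5 CPM (2.86 ± 0.501, adjusted p = 0.00081), and without Z918 the adjusted p was 0.13. Pigr, which carries IgA across the epithelium, was abundant under both labels, at 2362, 2960 and 2505 against 1605, 2052 and 1979 CPM, and was higher by 0.48 ± 0.065 (adjusted p = 1.3e-05). Haptoglobin (Hp) was at 0.842, 0 and 2.75 CPM against 0, 0 and 0.028 CPM, so that it was absent from both libraries of Z918, and the mean of the libraries labelled untreated was at least 11.3-fold higher than the detection floor of the others. The call of Hp was lost without any 1 germ-free culture (adjusted p = 0.063 to 0.69). Duox2, another epithelial oxidase, stood at 32.0, 11.7 and 13.7 against 11.6, 3.65 and 2.71 CPM and did not pass (1.82, adjusted p = 0.11). Pglyrp1, a peptidoglycan recognition protein outside the list, was higher by 1.02 ± 0.105 (adjusted p = 3.8e-08).

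Of 24 chemokines and cytokines in the data 15 were tested, and 2 of them were higher. The median was 1.71, or 1.01 with genes at the detection floor set to their bound. The largest differences, of Cxcl9 (6.27, edgeR adjusted p = 0.71) and Il7 (5.19, 0.68), did not pass. A low gene could enter the test through the label where it was high, so neither median describes the whole family. Ccl20, which attracts CCR6-bearing lymphocytes and dendritic cells, stood at 9.01, 8.6 and 9.39 CPM against 1.67, 0 and 0.498 CPM (adjusted p = 0.0046), and the adjusted p was 0.13 without Z918 and 0.091 without Z919. Cxcl16, a membrane-bound chemokine, stood at 35.3, 13.9 and 26.5 against 19.8, 3.25 and 4.51 CPM (1.82 ± 0.338, adjusted p = 0.0017). It was higher in each culture, but its labels overlapped, and the adjusted p was 0.084 without Z918 and 0.15 without Z919. The abundant constitutive chemokines Ccl25 (318, 428 and 298 against 270, 422 and 254 CPM) and Ccl28 (122, 76.8 and 106 against 76.5, 52.6 and 81.3 CPM) did not pass (adjusted p = 0.75 and 0.13). The neutrophil chemokine Cxcl2 reached at most 1 count in any of the 6 libraries, and Il6, Ccl5, Csf2 and Csf3 were at 0.

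Antigen presentation by MHC class I moved by smaller amounts, with 4 of 14 tested genes higher, none lower and a median of 0.28. The summed level of the list was 3508 to 3562 CPM labelled untreated and 2894 to 3040 CPM labelled TNF-treated. B2m, the light chain of class I molecules, stood at 391, 449 and 409 against 260, 274 and 210 CPM (0.75 ± 0.093, adjusted p = 2e-06). Tapbp (tapasin, which loads peptides) was higher by 0.86 ± 0.156 (adjusted p = 0.0012), Psme2 (a proteasome activator) by 0.65 ± 0.123 (0.0023) and the heavy chain H2-K1 by 0.35 ± 0.084 (0.031). Without Z918 the adjusted p was 0.20 for Tapbp, 0.14 for Psme2 and 0.57 for H2-K1, and without Z919 it was 0.47 for H2-K1. The heavy chain H2-D1, at 249, 275 and 191 against 203, 203 and 214 CPM, did not pass (0.19, adjusted p = 0.77). The 2 heavy chain genes are near-identical in parts, and their counts may share reads.

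Interferon response genes showed 1 call in each direction among 21 tested, with a median of 0.39. Irf1, a factor that NF-κB and interferon signalling both induce, stood at 25.1, 24.7 and 28.2 against 13.6, 8.22 and 8.61 CPM (1.39 ± 0.308, adjusted p = 0.014). Irf8, a relative of Irf1, stood at 103, 165 and 95.5 against 158, 184 and 167 CPM and was lower in the libraries labelled untreated (-0.52 ± 0.114, adjusted p = 0.012). The adjusted p of Irf1 was 0.24 without Z918 and 0.28 without Z919, and that of Irf8 was 0.20 without Z917 and 0.57 without Z919. Of 16 Toll-like receptors and adaptors tested and of 17 cell death genes tested, none passed, with medians of -0.04 and 0.10.

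Among 15 tested genes of inflammasomes and pyroptosis, Casp4 was higher, and the median was -0.03. Casp4 encodes caspase-11, which senses cytosolic lipopolysaccharide. It stood at 58.5, 48.6 and 49.8 against 20.6, 15.6 and 15.1 CPM (1.62 ± 0.215, adjusted p = 8.2e-06), and the cultures had like log2 ratios of 1.5, 1.64 and 1.71. Casp1 (0.16, adjusted p = 0.89) and the adaptor Pycard (0.06, 0.96) did not pass. Gsdmd, named after its values were seen, did not pass either, with a larger log2 difference of 1.18 (edgeR adjusted p = 0.15). Of 21 tested genes of adhesion and tight junctions 2 were higher, with a median of 0.04. Icam1, a leukocyte adhesion molecule, stood at 10.2, 16.1 and 2.71 against 0.465, 0.315 and 0.360 CPM (4.34 ± 0.760, adjusted p = 0.00081), and without Z918 the adjusted p was 0.091. F11r, the junctional adhesion molecule A, was higher by 0.64 ± 0.117 (adjusted p = 0.0015), with 0.10 without Z918 and 0.062 without Z919, while Epcam (0.04) and Cdh1 (0.04) were nearly level.

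**Figure D3:**
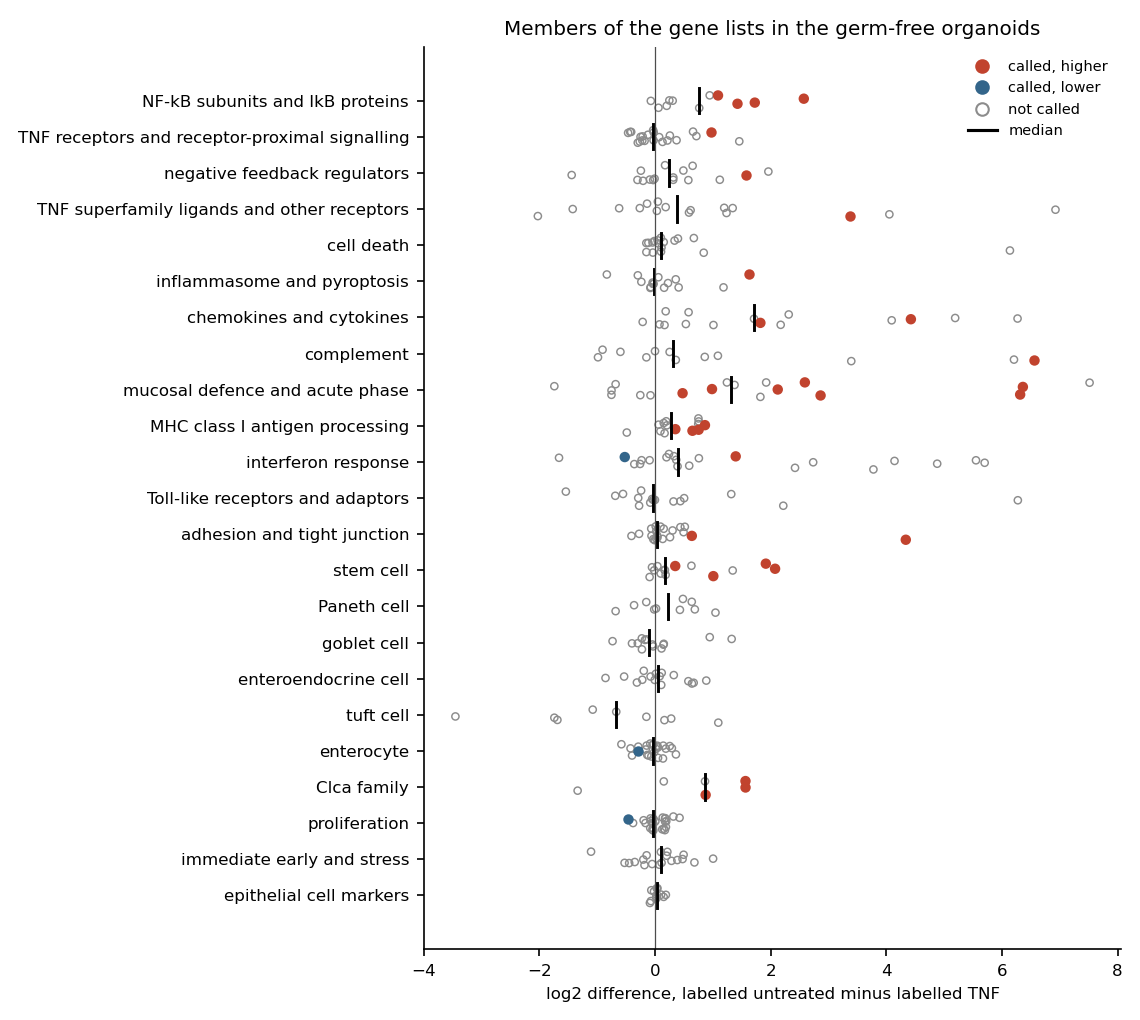
Fitted log2 differences, labelled untreated minus labelled TNF-treated, of the tested members of 23 gene lists, 1 row per list. Filled points passed the test (red higher, blue lower), open points did not, and black bars are list medians. The red points cluster in the NF-κB, mucosal defence, MHC class I, stem cell and Clca rows, and points beyond 6 include genes at or near the detection floor, such as Hp.

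Crypt genes did not move as 1 group. Of 14 stem cell genes tested, 4 were higher and none lower, with a median of 0.18. Olfm4, a secreted glycoprotein of crypt base stem cells, stood at 615, 726 and 1857 CPM against 130, 127 and 671 CPM (2.08 ± 0.123, adjusted p = 1.9e-14). Z919 was the highest culture under both labels, so that its library labelled TNF-treated (671 CPM) was over the library of Z917 labelled untreated (615 CPM), and the labels overlapped although each culture went the same way. Without the pairing by culture its adjusted p was 0.34. Ascl2, a transcription factor of the stem cell state, stood at 33.1, 22.4 and 29.4 against 8.78, 4.92 and 9.36 CPM (1.92 ± 0.297, adjusted p = 0.00011). Msi1, an RNA-binding protein, was higher by 1.01 ± 0.244 (adjusted p = 0.034) and Slc12a2, a chloride cotransporter, by 0.35 ± 0.074 (0.0088). Msi1 missed the threshold without any 1 culture (adjusted p = 0.09 to 0.57), and Slc12a2 without Z917 (0.27) and without Z918 (0.13). The stem cell receptor Lgr5, at 195, 115 and 217 against 188, 91 and 259 CPM, was not called (0.04, adjusted p = 0.98). Smoc2 (528, 435 and 716 against 525, 486 and 721 CPM, adjusted p = 0.94) and the Wnt target Axin2 (127, 109 and 152 against 132, 117 and 141 CPM, adjusted p = 0.99) did not pass either.

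The Clca genes, which encode secreted regulators of chloride channels, had 3 of 6 tested members higher and a median of 0.87. Their summed level was 2494 to 3233 CPM labelled untreated and 1015 to 1338 CPM labelled TNF-treated, with no overlap. Clca3b made up most of it, at 1817, 1752 and 1918 against 592, 507 and 788 CPM (1.56 ± 0.083, adjusted p = 8.5e-16). Clca4b stood at 589, 1209 and 1221 against 375, 743 and 507 CPM (0.87 ± 0.118, adjusted p = 9.5e-06), and Clca3a2 was higher by 1.56 ± 0.322 (0.0064), with an adjusted p of 0.41 without Z918 and 0.051 without Z919. Clca3a1 (0.86, adjusted p = 0.16), Clca1 (0.15, 0.99) and Clca4a (-1.34, 0.85) did not pass. The Clca3 and Clca4 genes are close copies, and their reads may have been split between them.

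Few markers of the differentiated cell types passed the test, and some differed between cultures. None of 10 Paneth, 14 goblet, 16 enteroendocrine and 9 tuft cell genes tested passed, against 0.736% of all genes tested. This does not show that they were level, and their median log2 differences were 0.22, -0.10, 0.05 and -0.67. Lysozyme (Lyz1), a Paneth cell product, stood at 176, 140 and 142 against 176, 120 and 160 CPM. Of 24 enterocyte genes 1 was lower, with a median of -0.04. It was Sis, the sucrase-isomaltase of the brush border, at 1388, 2990 and 736 against 1681, 3564 and 931 CPM (-0.29 ± 0.072, adjusted p = 0.040), which missed the threshold without any 1 culture (0.23 to 0.50). Z918 had the highest Sis under both labels, and the enterocyte genes together summed to 10250 CPM there against 4732 CPM in Z917 and 3573 CPM in Z919 in the libraries labelled untreated, and to 11110, 5366 and 3514 CPM in the others. In bulk libraries, more cells of a type and more RNA per cell cannot be told apart. Of 25 proliferation genes 1 passed, Ccnd2, a G1 cyclin, at 481, 425 and 283 against 608, 605 and 417 CPM (-0.47 ± 0.083, adjusted p = 0.00087, and 0.054 without Z919). Mki67 stood at 817, 725 and 713 against 731, 656 and 683 CPM and did not pass (adjusted p = 0.77). None of 19 immediate early and stress genes passed, with a median of 0.10.

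**Figure D4:**
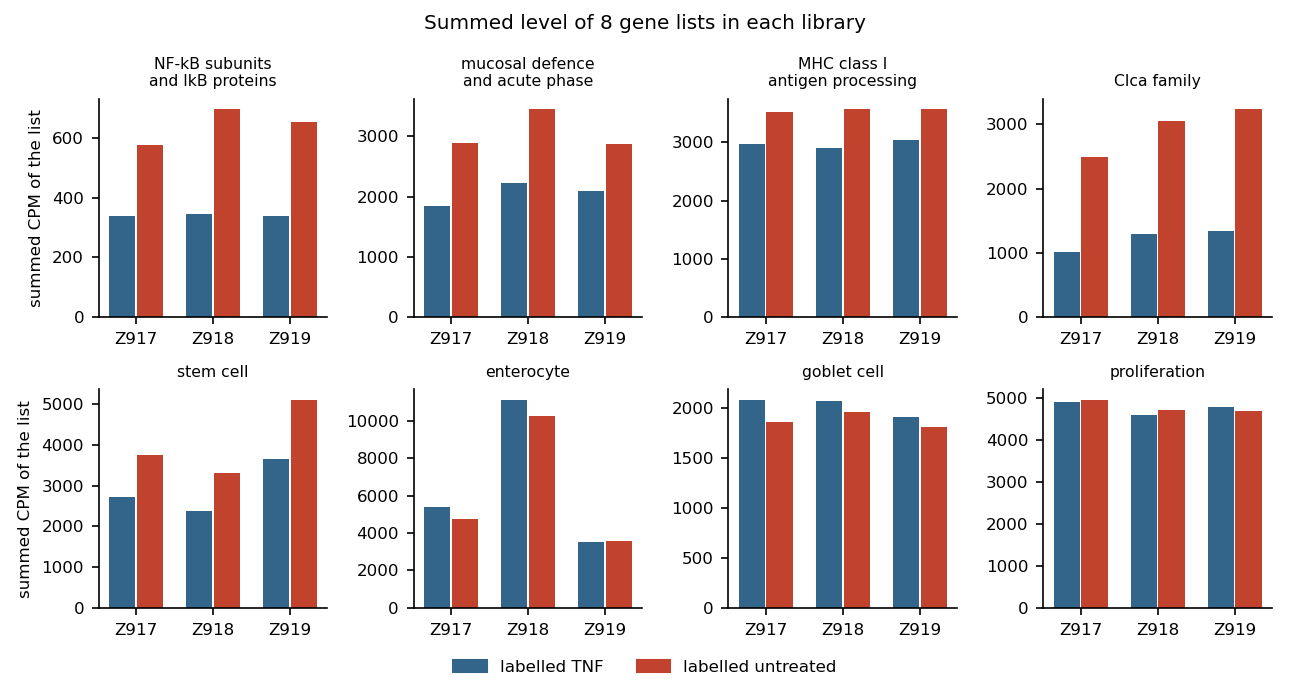
Summed CPM of 8 gene lists, with 1 pair of bars per germ-free culture (blue labelled TNF-treated, red labelled untreated), 1 library per bar. The NF-κB, mucosal defence, MHC class I, Clca and stem cell sums are higher in the red bar of each culture, while the enterocyte sum is 10250 and 11110 CPM in Z918 and at most 5366 CPM elsewhere. Pigr and Olfm4 carry much of the mucosal defence and stem cell differences, so a sum does not show that every member moved.

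Further genes with small p values were not members of a list. Mreg (melanoregulin, which acts on lysosome-related organelles) stood at 79.8, 84.2 and 85.0 against 28.3, 27.8 and 35.3 CPM (1.45 ± 0.164, adjusted p = 3.1e-07). Tmem176b, a membrane protein, was higher by 1.03 ± 0.126 (2e-06), Prkg2, the type II cGMP-dependent kinase, by 1.06 ± 0.138 (6.1e-06) and Far2, a fatty acyl-CoA reductase, by 0.92 ± 0.123 (9.2e-06). None of these 4 had overlapping labels. Of the 78 higher genes, 5 were at or under the detection floor in all libraries labelled TNF-treated. They were Hp and, named after their values were seen, H2-M2, Hpx, Mat1a and Serpina3k. H2-M2, a class I-like gene, was at 2.81, 2.71 and 2.53 CPM against 0 in each of the others, at least 25.4-fold higher. Serpina3k (1.78, 0 and 6.90 against 0, 0 and 0.028 CPM, at least 27.4-fold) and Mat1a (1.56, 0 and 3.19 CPM against 0, at least 15-fold) were at 0 in both libraries of Z918, as Hp was, and Hpx was at 0.436, 1.16 and 12 against 0, 0.063 and 0 CPM, at least 42.8-fold. Z919 set these bounds except that of H2-M2. Without it they were 6.82-fold for Hpx, 7.6-fold for Serpina3k, 6.67-fold for Mat1a and 3.60-fold for Hp, and the adjusted p was 0.57 for Hpx, 0.15 for Mat1a and 0.011 for Serpina3k. H2-M2 missed the threshold without any 1 culture (adjusted p = 0.20 to 0.26).

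Other genes outside the lists, named after their values were seen, added epithelial functions. Ikbke, an IκB kinase-related kinase, stood at 110, 156 and 124 against 84.4, 65.1 and 72.3 CPM (0.81 ± 0.156, adjusted p = 0.0029). Tgm2, a transglutaminase that cross-links proteins, stood at 141, 139 and 139 against 81.5, 69.1 and 80.6 CPM (0.86 ± 0.141, adjusted p = 0.00024), and it passed without any 1 culture. Vdr, the vitamin D receptor, stood at 346, 462 and 420 against 273, 316 and 290 CPM (0.47 ± 0.086, adjusted p = 0.0013). The labels of these 3 genes did not overlap. Those of guanylin (Guca2a) and uroguanylin (Guca2b), peptides that regulate fluid secretion, did. Guca2a was higher by 0.50 ± 0.099 (adjusted p = 0.0043) and Guca2b by 0.62 ± 0.130 (0.0083), each in all 3 cultures. Without 1 culture the adjusted p rose to 0.32 for Ikbke, 0.080 for Vdr, 0.16 for Guca2a and 0.69 for Guca2b at most.

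The genes lower in the libraries labelled untreated were led by Dmbt1, a mucin-like scavenger receptor that binds bacteria. It stood at 56.6, 41.0 and 14.5 CPM against 138, 105 and 25.3 CPM (-1.16 ± 0.203, adjusted p = 0.00081). Z919 was the lowest culture under both labels, and the labels overlapped. Npc1l1, the intestinal cholesterol transporter, stood at 118, 301 and 146 against 196, 366 and 214 CPM (-0.52 ± 0.096, adjusted p = 0.0016). The helix-loop-helix factor Tcf23 stood at 15.1, 14.4 and 32.6 against 36.0, 45.9 and 39.6 CPM (-1.07 ± 0.249, 0.026), without overlap. Papln (papilin, a matrix protein, -0.68 ± 0.146), Pdss1 (an enzyme of ubiquinone synthesis, -0.55 ± 0.127), Pdgfa (a growth factor, -0.47 ± 0.106) and Anxa4 (annexin A4, -0.26 ± 0.063) had adjusted p values of 0.011 to 0.031. With 1 germ-free culture left out in turn, 29 of the 78 higher genes passed in every such fit, and 0 of the 15 lower ones did. Dmbt1 had an adjusted p of 0.064 without Z917 and 0.081 without Z918, and Npc1l1 of 0.13 without Z917.

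The last comparison asked whether the contrast between the labels differed with the microbial status of the donors. In the SPF organoids 271 genes (2.14% of the same 12640) passed the test, 205 higher and 66 lower in the libraries labelled untreated, from 6 cultures rather than 3. Of the 78 higher genes of the germ-free organoids, 76 (97.4%) also passed as higher in the SPF organoids, which is 37.1% of the 205. Of the 15 lower genes, 9 (60.0%) also passed as lower, which is 13.6% of the 66. The sign in SPF organoids was the same for 78 of 78 and 15 of 15. Of the 186 genes that passed in SPF organoids but not in germ-free organoids, 175 had the same sign in the latter. The libraries of the 2 origins are separate, but they share 1 fit and its estimate of the spread.

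The difference of the contrasts, germ-free minus SPF, passed for none of the 12640 genes (0.0%) in edgeR, and 465 had an unadjusted p under 0.05. DESeq2 gave 2 genes, Saa3 (-9.49 on the log2 scale, adjusted p = 0.026) and Cyp27a1 (-5.72, adjusted p = 0.04), of which Saa3 was named after its values were seen. Within germ-free organoids the edgeR difference of Saa3 was -1.74 (adjusted p = 0.92). In simulated data, 27.3% of the DESeq2 calls for the difference of the contrasts were false. A p that misses the threshold does not show that the responses were alike, and the intervals give what the data allow. For Nfkbia the log2 difference was 2.57 in germ-free and 2.70 in SPF organoids, with a 95% interval of the difference from -0.42 to 0.17. For Clca3b it was 1.56 in both, with an interval from -0.20 to 0.20. For Reg3g it was 2.12 and 1.84 (interval -0.25 to 0.81), for Olfm4 2.08 and 1.90 (-0.12 to 0.47), for Casp4 1.62 and 1.76 (-0.66 to 0.39) and for C3 6.55 and 7.06 (-1.64 to 0.61). The contrasts of Nfkbia, Clca3b and Olfm4 were thus bounded within 0.5 of each other on the log2 scale, and those of Reg3g, Casp4 and C3 less tightly. Low genes had wide intervals, such as Tnf (3.38 and 5.09, interval -3.755 to 0.338) and Nox1 (6.31 and 4.62, interval -0.54 to 3.93).

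The 5 genes with the smallest p for the difference were Filip1l (-1.86), Clec2h (-0.95), Fbxo5 (1.08), Zfp821 (-1.68) and Cyp27a1 (-5.61), with unadjusted p values of 0.00038 to 0.00083 and an adjusted p of 1 each. Cyp27a1, a sterol hydroxylase, stood at 0.436, 0.132 and 0 CPM in the germ-free libraries labelled untreated and at 3.90, 4.25 and 2.05 CPM in the others. It was low under both labels, and its difference within germ-free organoids did not pass either (adjusted p = 0.11). Tnfrsf11a had a log2 difference of 1.28 in germ-free and 0.64 in SPF organoids (interval of the difference 0.19 to 1.09, unadjusted p = 0.0063, adjusted p = 1). The 8 genes that passed in germ-free organoids alone were Npc1l1, Pdgfa, Tcf23 and Sis and, named after their values were seen, Hpx, Tnfaip8l1, Gstm3 and Myo1d. None of them passed the test of the difference. Npc1l1 was nearest to it among the genes of the lower group described above, at -0.52 in germ-free and -0.18 in SPF organoids (interval -0.58 to -0.10, unadjusted p = 0.0066).

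**Figure D5:**
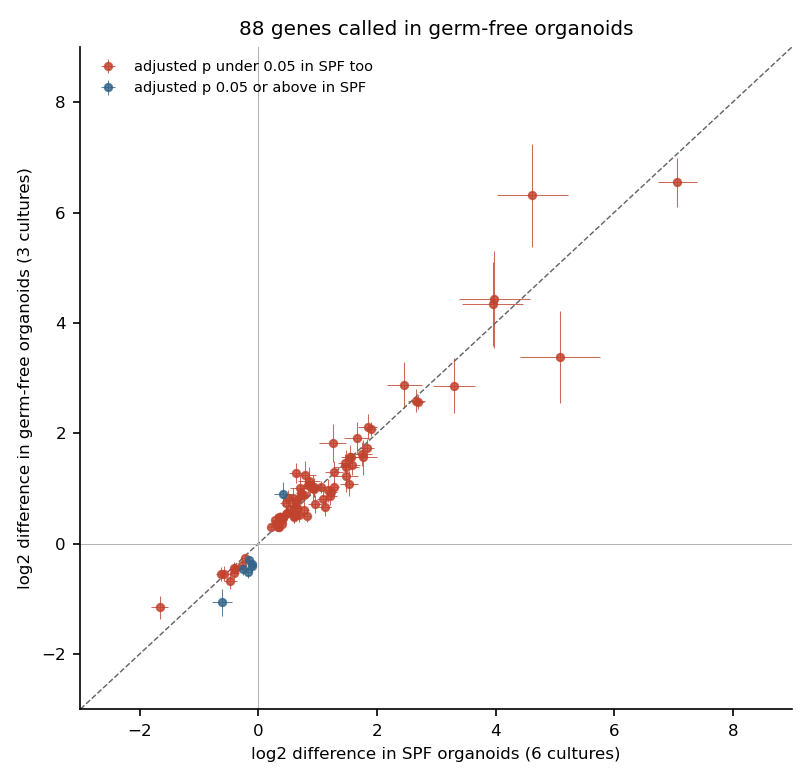
Fitted log2 differences, labelled untreated minus labelled TNF-treated, in SPF organoids (x axis, 6 cultures) and germ-free organoids (y axis, 3 cultures) for 88 of the 93 genes that passed in germ-free organoids. The 5 genes at the detection floor are left out, bars are standard errors, and red points also passed in SPF organoids. The points have the same sign in both origins. Some lie off the dashed line of equal differences, such as Tnf (3.38 in germ-free and 5.09 in SPF organoids) and Nox1 (6.31 and 4.62).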

How the data were processed

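The deposited values are raw read counts per gene, 22524 genes in each library, without normalization. Per the labels RNA was poly(A)-selected and libraries were made with a stranded TruSeq kit. The study's methods name version 2 of the TruSeq RNA kit and do not call it stranded. The authors trimmed adapters and 5 bases at the 3′ end and aligned single-end reads to GRCm38. The study's methods name STAR and GenomicRanges and the submitters' processing notes STAR 2.5.4b and featureCounts. The use of strand and of reads with several positions is not given in the sources used here, which bears on gene families.

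Groups follow the sample labels, and the name codes of the deposited data, which say the opposite, are stated beside them. A gene was tested where it reached 10 counts in 50% or more of the libraries of any origin and label. A low gene could thus enter through the label where it was high, and list medians cover tested members only. A single edgeR 4.0.16 quasi-likelihood fit (R 4.3.3, TMM) over 18 organoid libraries held a term per culture, 1 label effect for germ-free and 1 for SPF organoids, and left 7 residual degrees of freedom. The 2 libraries of a culture come from 1 mouse. Their deviations correlated across genes at 0.171 to 0.268 in germ-free cultures and at 0.057 to 0.203 in SPF cultures, against a mean of -0.069 between cultures. CPM are TMM-scaled, log ratios per culture used a prior count of 2, and intervals cover counting and culture error within this model. The depth of at least 20786008 counts per library places 3 counts at 0.144 CPM or less. The spread behind each p-value and SE was estimated over all 9 cultures and moderated across genes, while each germ-free difference rests on 3 cultures of littermates. Each SE is the absolute log2 difference divided by the square root of the F statistic of its test, and the intervals use it. It is unreliable for genes near 0 counts.

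Members and gene lists were chosen with earlier results of these data known, and no set test was run. Genes named are Nfkbia, C3 and Reg3g, the 15 higher and 10 lower genes with the smallest p and 1 direction in all 3 cultures, list members that passed, up to 4 others per list by level, all NF-κB members and 5 genes of the smallest p for the difference, leaving out unnamed gene models. Some genes that meet this rule are not reported here. A gene outside this rule is said to have been named after its values were seen. Alternatives were DESeq2 1.42.0, genes with at least 1 count, no term per culture, germ-free libraries alone, 1 effect per facility, and leaving out each culture. The fit was tested on simulated data in which 200 genes were changed by 1 on the log2 scale, in the germ-free contrast only. The simulated counts used the spread that edgeR estimated for each gene. There edgeR recovered 60.5% of them in that contrast and 49.5% for the difference, with 3.2% and 2.94% of its calls false. DESeq2 recovered 62.5% and 54.5%, with 16.7% and 27.3% of its calls false. In the simulated SPF contrast, where no gene was changed, edgeR made 2 calls, 100% of them false. The cell line libraries were not used here.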

Additional observations from a re-analysis of the deposited data

Results flagged for a closer look

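Prom1, a membrane glycoprotein of crypt cells, was higher in the library labelled untreated in all 3 germ-free cultures and lower there in all 6 SPF cultures, with a difference of the contrasts of 0.35 on the log2 scale. In the germ-free organoids its level was 280, 208 and 299 CPM labelled untreated against 236, 204 and 294 CPM. It was nearly level in Z918 and Z919, and the germ-free contrast did not pass (0.10, edgeR adjusted p = 0.91). The difference of the contrasts did not pass either (edgeR, unadjusted p = 0.0051, adjusted p = 1). The share of all genes tested with such opposite signs is not given, so the pattern alone does not set Prom1 apart.

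Fbxo5, an inhibitor of the anaphase-promoting complex, also went one way in all germ-free and the other way in all SPF cultures, with a difference of 1.08 on the log2 scale. The share of all genes tested with this pattern is not given here either. Fbxo5 stood at 40.5, 51.9 and 38.7 CPM against 34.2, 20.4 and 29.0 CPM in the germ-free organoids. The difference did not pass (edgeR, unadjusted p = 0.00062, adjusted p = 1).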

How the results depend on the processing

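With 3 cultures, calls depended on the pairing. Without the term per culture (no replicate block), 22 genes were higher and 0 lower in the germ-free contrast, against 78 and 15 with it, and all 22 were among the 93. Without it 96 genes passed in SPF organoids against 271. With the germ-free libraries alone and no replicate block, 15 were higher and 0 lower, and 119 were lower by the thresholds of the study against 200. With the block and germ-free libraries alone, 109 passed, 89 of them among the 93. Testing all genes with at least 1 count gave 123 higher and 32 lower. DESeq2 gave 106 higher and 36 lower (89 of the 93 among them), 357 lower by the thresholds of the study, 416 in SPF organoids and 2 for the difference. Leaving out 1 culture gave 35 to 88 higher and 3 to 19 lower genes, 176 to 322 lower by the thresholds of the study, 184 to 283 in SPF organoids and 0 for the difference. The low ends, 35 and 3, came without Z918, while 51 and 4 remained without Z917 and 43 and 4 without Z919. The cause of these changes was not tested, except that a fit without a germ-free culture has 2 pairs. None of the 48 genes that passed and were named by the rule changed direction under any alternative. Of these 48, 33 lost the call without the block, 1 (Hp) in DESeq2, and 15, 23 and 18 without Z917, Z918 and Z919. Genes named after their values were seen are not in this count. The median over all genes lay between -0.02 and 0 in each alternative. Some counts were uneven between libraries, and 149 genes were at 0 in 1 germ-free library and at 100 or more counts in another of the same label, and 1 of them passed.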
